A study of Mus musculus with 10 samples.

Results

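The subunits of the receptors for glutamate and GABA were described in brain RNA, labelled as striatum, from BACHD mice. Members were the genes whose symbols carry the names of the AMPA (Gria1 to Gria4), kainate (Grik1 to Grik5), NMDA (Grin), delta (Grid) and metabotropic (Grm) glutamate receptors or of the GABA-A (Gabra, Gabrb, Gabrg, Gabrd, Gabre, Gabrq and Gabrr) and GABA-B (Gabbr1 and Gabbr2) receptors. The table of 21230 genes held 43 of them, of which 38 are described, namely 4 AMPA, 5 kainate, 7 NMDA, 1 delta, 6 metabotropic, 13 GABA-A and 2 GABA-B genes. One further matching entry, Grin1os, is an antisense transcript and was not counted. Gabra6, Gabrr3 and Grm6 were not analysed here.

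RNA was sequenced from 10 libraries labelled as separate biological replicates, 5 for SPI-24 and 5 for DMSO. All mice were BACHD animals on the FVB/N strain, heterozygous for a bacterial artificial chromosome that carries the full-length human huntingtin gene with an expanded repeat beside their own mouse Htt, so that no unaffected mice entered the comparison. SPI-24 is an inhibitor of the Spt5-RNA polymerase II complex, and it or its DMSO vehicle (mixed with PEG400) was delivered for 8 weeks from an osmotic pump under the skin of young adult mice at an early stage of disease. The labels give no sex, and the tissue was a small punch of a brain slice, whose position decides which cells it holds.

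Glutamate opens AMPA, kainate and NMDA receptors, which are cation channels assembled from several subunits, and acts more slowly through metabotropic receptors, which couple to G proteins. GABA opens the chloride channels of GABA-A receptors and acts through the GABA-B receptor, a G protein-coupled pair of Gabbr1 and Gabbr2. In the striatum, medium spiny neurons receive glutamate from cortex and thalamus and release GABA, so receptors of both kinds sit on the same cells. The choice of subunits sets where a receptor lies and how fast it responds.

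Depth ran from 5478283 to 46923225 reads per library, and 3 libraries were shallow, with 10124282 reads or fewer (DMSO replicate 3, SPI-24 replicate 2 and SPI-24 replicate 5). Values are normalized counts, that is, reads scaled by 1 size factor per library, and counting error limits the low ones. Of genes with a median of at least 100 in the other libraries, 708 were listed at 0 in DMSO replicate 3. The same count was 313 for SPI-24 replicate 2 and 218 for SPI-24 replicate 5, against 3 to 62 in the other libraries. The labelled tissue was checked against its cells. The 16 marker genes of medium spiny neurons summed to 11095 to 182966 normalized counts in DMSO and to 10749 to 187767 in SPI-24, and the dopamine receptor gene Drd1, which marks these neurons, had 2129, 78.8, 0, 668 and 40.7 in DMSO replicates 1 to 5 and 15.7, 537, 15.1, 19.2 and 2525 in SPI-24 replicates 1 to 5. It was thus at 78.8 or below in 6 of the 10 libraries, which hold little of a marker that defines the labelled tissue, and whether their punches lay in the striatum was not tested. Adora2a, another of their markers, was listed at 0 in DMSO replicate 3 and SPI-24 replicate 4, and DMSO replicate 3 had 4 of the 16 at 0. The 10 thalamic neuron markers summed to 862 to 32053 in DMSO and to 8469 to 33043 in SPI-24, and 2 of them were at 0 in DMSO replicate 1. Markers of choroid plexus, the tissue that makes cerebrospinal fluid, summed to 601 to 189922 in DMSO and to 1714 to 29861 in SPI-24, and both these 10 markers and the 10 of ependymal cells, which line the ventricles, were highest in DMSO replicate 1, with DMSO replicate 4 next. The libraries thus differed widely in markers of striatal neurons, neighbouring neurons and ventricle cells within each treatment. Averaged over the 16 medium spiny neuron markers, the log2 deviation from the mean of the libraries ran from -2.96 to 3.14. Averaged over 10 markers shared by all neurons, it ran from -0.79 to 0.34. Single markers of that list ranged further, as Nefl did, from 2894 normalized counts in DMSO replicate 1 to 14230 in SPI-24 replicate 1.

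Promoter sequences are shown for 2 pairs of subunits to which the results return: both subunits of the GABA-B receptor, 1 of which varied little between libraries and the other widely, and the neighbouring genes Gabra4 and Gabrb1, whose starts lie 387 bp apart on opposite strands of chromosome 5. Each window runs from 250 bases before to 50 bases after the RefSeq gene start (GRCm38.p6) and is written 5′ to 3′ on the strand of its gene, with matches to the GC box GGGCGG, on either strand, in capitals. RefSeq windows were found for 28 of the 38 members. The windows lie at chr4:46991665-46991964 (minus strand) for Gabbr2, chr17:37045716-37046015 (plus) for Gabbr1, chr5:71658259-71658558 (minus) for Gabra4 and chr5:71657671-71657970 (plus) for Gabrb1.
Gabbr2: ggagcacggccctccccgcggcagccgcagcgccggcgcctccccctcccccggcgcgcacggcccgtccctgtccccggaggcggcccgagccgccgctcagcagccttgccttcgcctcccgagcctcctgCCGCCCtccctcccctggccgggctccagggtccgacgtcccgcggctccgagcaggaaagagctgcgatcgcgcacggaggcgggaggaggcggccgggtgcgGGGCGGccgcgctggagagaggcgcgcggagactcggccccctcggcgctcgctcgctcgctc
Gabbr1: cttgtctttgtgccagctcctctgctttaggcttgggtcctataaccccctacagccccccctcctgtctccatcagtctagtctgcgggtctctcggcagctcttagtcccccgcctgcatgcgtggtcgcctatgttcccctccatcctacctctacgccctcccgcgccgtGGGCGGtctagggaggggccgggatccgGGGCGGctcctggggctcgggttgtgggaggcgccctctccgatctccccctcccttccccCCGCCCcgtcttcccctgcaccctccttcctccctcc
Gabra4: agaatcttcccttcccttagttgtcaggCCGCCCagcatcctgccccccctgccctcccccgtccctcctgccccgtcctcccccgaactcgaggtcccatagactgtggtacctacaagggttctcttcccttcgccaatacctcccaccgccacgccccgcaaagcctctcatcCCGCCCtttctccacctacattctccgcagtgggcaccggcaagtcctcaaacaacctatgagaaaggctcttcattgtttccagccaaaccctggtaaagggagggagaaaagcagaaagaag
Gabrb1: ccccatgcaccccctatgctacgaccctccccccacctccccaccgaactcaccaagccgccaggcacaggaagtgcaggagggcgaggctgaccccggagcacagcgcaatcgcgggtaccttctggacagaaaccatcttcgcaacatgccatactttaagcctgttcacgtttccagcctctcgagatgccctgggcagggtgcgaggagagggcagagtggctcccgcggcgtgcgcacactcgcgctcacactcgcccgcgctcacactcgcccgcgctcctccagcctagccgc
The GC box occurred 2 times in the Gabbr2 window, 3 times in that of Gabbr1, 2 times in that of Gabra4 and 0 times in that of Gabrb1, and these matches did not overlap matches to any other motif searched. Of all 32851 mouse windows of this length, 35.7% held at least 1 GC box, and so did 18 of the 28 member windows. The TATA box TATAAA, the cAMP response core TGACG and the TCF/LEF core CTTTGA, searched on both strands, matched none of the 4 windows and were present in 13.6%, 20.8% and 16.0% of all windows. The Gabbr2 window held 46 CG dinucleotides and that of Gabra4 held 12, against a median of 7.0 over all windows.

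Levels were compared between subunits only after division by the length of their exons. By this measure Gabbr1, the subunit that binds GABA in the GABA-B receptor, was the most abundant of the 38, with a mean of 1744 normalized counts per kb over the 10 libraries. It was followed by the GABA-A subunit Gabra4 (748 per kb), the AMPA subunit Gria1 (692), the second GABA-B subunit Gabbr2 (643) and the GABA-A subunit Gabrd (617). At the other end lay the GABA-A rho subunit Gabrr1 (0.7 per kb) and the NMDA subunit Grin3b (0.69), each listed at 0 in 8 of 10 libraries. Means of at least 10, the minimum for a test, were reached by 35 of the 38 members, all but Gabrr1, Gabrr2 and Grin3b, and 29 had reads in every library.

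**Figure D1:**
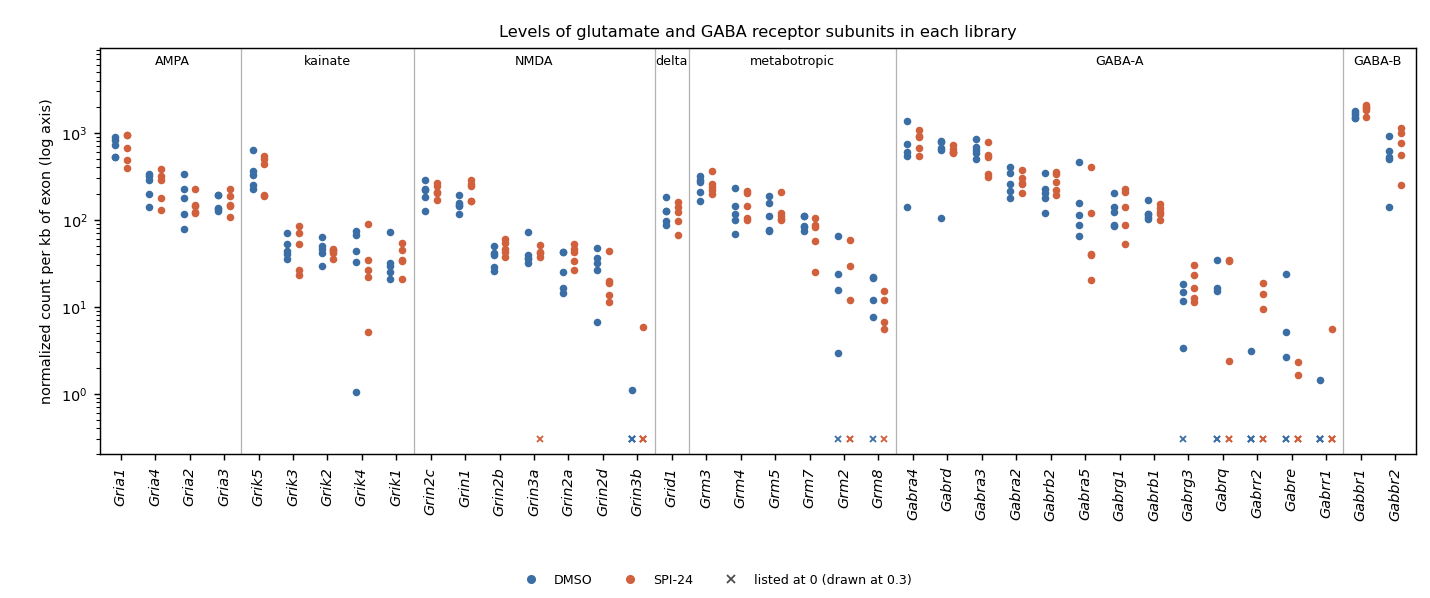
Normalized counts per kb of exon (log axis) of the 38 subunits, 1 point per library, blue for DMSO (n = 5) and orange for SPI-24 (n = 5), with crosses for libraries where a subunit was listed at 0. Gabbr1 lies highest and is tightly grouped, and the points of both treatments overlap in every subunit.

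Among AMPA receptor genes, Gria1, which encodes the GluA1 subunit, was highest, with 702 ± 169.6 in DMSO and 683 ± 251 in SPI-24 per kb (SD, n = 5 each). Its normalized counts were 5423, 4431, 3189, 3182 and 4977 in DMSO replicates 1 to 5 and 2351, 2960.4, 3998, 5675 and 5639 in SPI-24 replicates 1 to 5. Gria4 (GluA4) came next at 257 per kb, with normalized counts of 876, 1240.1, 2095, 2023 and 1809 in DMSO replicates 1 to 5 and 2397, 1815, 1987, 1127 and 813 in SPI-24 replicates 1 to 5. Libraries high in Gria1, such as DMSO replicate 1 and SPI-24 replicates 4 and 5, were among the lowest in Gria4, and the groups overlapped for both genes. Gria2 (GluA2), the subunit that makes AMPA channels impermeable to calcium, lay at 169.8 per kb and Gria3 at 159 per kb. The exons of Gria2 cover 15.6 kb because of long untranslated ends, and the value per kb of its longest coding transcript was 255, against 754 for Gria1, 303 for Gria3 and 297 for Gria4.

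Among kainate receptor genes, Grik5, which encodes the high-affinity GluK5 subunit that works only together with GluK1, GluK2 or GluK3, was by far the highest, at 365 ± 165 in DMSO and 376 ± 171 in SPI-24 per kb (SD, n = 5 each). Its normalized counts were 3324, 1182, 1316, 1697 and 1902 in DMSO replicates 1 to 5 and 982, 2277, 1010.2, 2614 and 2829 in SPI-24 replicates 1 to 5. The other kainate genes lay between 36.7 (Grik1) and 50.1 (Grik3) per kb. Grik3 had 474, 361, 389.6, 640.2 and 318 in DMSO replicates 1 to 5 and 209.9, 761, 235, 467 and 635 in SPI-24 replicates 1 to 5 normalized counts and was lowest in SPI-24 replicates 1 and 3, as Grik5 was. Grik4, the other high-affinity subunit, varied most in the family, from 6.25 in DMSO replicate 4 to 534 in SPI-24 replicate 4. Over the longest coding transcript the second place passed from Grik3 (50.1 per kb) to Grik1 (67.5), so the order below Grik5 rests on the length used.

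Among NMDA receptor genes, Grin2c (GluN2C) and Grin1 (GluN1, the subunit that every NMDA receptor contains) were highest, at 214 and 188 per kb. Normalized counts of Grin2c were 630.2, 1117, 1142, 1465 and 915 in DMSO replicates 1 to 5 and 855, 1015, 1052, 1328 and 1238 in SPI-24 replicates 1 to 5. Those of Grin1 were 1435, 1412, 1511, 1136 and 1853 in DMSO replicates 1 to 5 and 1592, 2808, 2406, 2500.0 and 1589 in SPI-24 replicates 1 to 5, with SPI-24 replicates 2, 3 and 4 above every DMSO library. Their order also rests on the length: per kb of the longest coding transcript, Grin1 lay at 427 and Grin2c at 219.8. Grin2a (GluN2A) and Grin2b (GluN2B), which bind glutamate in most NMDA receptors of the forebrain, lay at 34.3 and 42.8 per kb of exon. Per kb of their longest coding transcript they lay at 42 and 44.2, below Grin2c by either length. For Grin2b both lengths are close (24842 and 24060 bases). Its mean normalized count was 1063, against 1076 for Grin2c, so the gap between them rests on the division by length. Grin3a (GluN3A), a subunit that lowers calcium entry, lay between 392 and 882 normalized counts in 9 libraries but was listed at 0 in SPI-24 replicate 2, where 3 reads would be worth 8.30. Whether the 313 abundant genes at 0 in that library bear on this value was not tested. Grin2d had 44 to 317 normalized counts.

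Grid1 encodes a delta receptor, a protein that sits at synapses and binds cerebellins rather than opening to glutamate alone. It lay at 120.3 per kb of exon and 125 per kb of its longest coding transcript, with normalized counts of 517, 756, 1094, 577 and 749.6 in DMSO replicates 1 to 5 and 399, 827, 956, 574 and 724 in SPI-24 replicates 1 to 5. DMSO replicate 3 was highest and SPI-24 replicate 1 lowest, and the groups overlapped.

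Among metabotropic glutamate receptor genes, Grm3, a Gi-coupled receptor of neurons and astrocytes, was highest at 249.9 ± 61.8 in DMSO and 256 ± 63.2 in SPI-24 per kb (SD, n = 5 each). Its normalized counts were 872, 644, 971, 823 and 499.6 in DMSO replicates 1 to 5 and 721, 797, 602, 680.2 and 1101 in SPI-24 replicates 1 to 5. Grm4, a presynaptic receptor, lay at 142 per kb, with 598, 702, 1377, 861 and 406 in DMSO replicates 1 to 5 and 623, 858, 1272, 1218 and 588 in SPI-24 replicates 1 to 5. DMSO replicate 3 and SPI-24 replicates 3 and 4 were high in Grm4, and DMSO replicate 5 was lowest. Grm7, also presynaptic, lay at 81.7 per kb and Grm5, a receptor coupled to Gq, at 124. Grm2, the other Gi-coupled receptor of its group, had 14.3, 76.2, 116, 0 and 318 in DMSO replicates 1 to 5 and 58.2, 0, 145, 286 and 0 in SPI-24 replicates 1 to 5 normalized counts, so 3 libraries were at 0 and DMSO replicate 5 and SPI-24 replicate 4 were highest. Grm8 ranged up to 218 and was at 0 in DMSO replicate 3 and SPI-24 replicate 2, both shallow libraries.

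GABA-A receptors usually combine alpha, beta and gamma subunits, and a delta subunit may take the place of gamma in receptors outside the synapse. Gabra4 (alpha4), which often pairs with delta, had 3329.6, 3689, 8244, 4529 and 846 in DMSO replicates 1 to 5 and 5406, 6474, 5654, 4064 and 3282 in SPI-24 replicates 1 to 5 normalized counts. DMSO replicate 5 stood far below the other 9 libraries in Gabra4 and also in Gabrd (delta), for which the values were 2320.0, 1832, 1914, 2247 and 301 in DMSO replicates 1 to 5 and 2105, 1685, 1903, 1715 and 1724 in SPI-24 replicates 1 to 5. In that same library Gabra5 (alpha5), a subunit abundant in hippocampus, was high: its normalized counts were 466, 334, 191, 261 and 1386 in DMSO replicates 1 to 5 and 118, 60.9, 355, 1203 and 120.0 in SPI-24 replicates 1 to 5, with SPI-24 replicate 4 next and the other 8 libraries at 466 or less. Gabra3 lay at 577 and Gabra2 at 280.5 per kb. Of the beta subunits, Gabrb2 lay at 244 and Gabrb1 at 124 per kb, and of the gamma subunits Gabrg1 lay at 136 and Gabrg3 at 14.2. The rarer theta (Gabrq), epsilon (Gabre) and rho2 (Gabrr2) subunits had means of 13.7, 3.55 and 4.5 per kb and were at 0 in 4, 5 and 6 libraries.

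For the GABA-B receptor, Gabbr1 had 11589, 12498, 13976, 13169 and 11615 in DMSO replicates 1 to 5 and 15202, 14348, 16117, 15107 and 11763 in SPI-24 replicates 1 to 5 normalized counts, a range of 1.39-fold. Gabbr2, which carries the receptor to the cell surface and couples it to G proteins, had 945, 3519, 6163, 4124 and 3351 in DMSO replicates 1 to 5 and 5069.7, 3710.2, 7704, 6738 and 1662 in SPI-24 replicates 1 to 5, a range of 8.15-fold. DMSO replicate 1 and SPI-24 replicate 5 were lowest in Gabbr2, and both were also low in Gabbr1, each the lowest of its group, within its far narrower range. The within-group standard deviation on the log2 scale was 0.149 for Gabbr1, the smallest of the members tested, and 0.951 for Gabbr2. For comparison, its median was 0.61 over the 35 members tested and 0.72 over all 15871 genes tested, and among genes with a mean of at least 100 it was 0.59 for 33 members and 0.50 for 11207 genes. The genes around Gabra4 vary as unequally: Gabra4 ranged 9.75-fold, from 846 to 8244 normalized counts, whereas Gabrb1, which starts beside it, ranged 1.69-fold, with 1635, 1594, 2345, 1492 and 1415 in DMSO replicates 1 to 5 and 2103, 1909, 1627, 1688 and 1389 in SPI-24 replicates 1 to 5.

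The comparison of SPI-24 with DMSO asked whether 8 weeks of treatment changed the level of these receptors. For this pump treatment the paper reports very low residual SPI-24 in the brain and no detectable effect on Htt protein. The paper also reports better performance in motor tests after it. With DESeq2 and a 2-fold threshold, the paper lists a small set of differentially expressed genes, most of them lower. Whether brain exposure bears on the values here was not tested. No subunit passed the test. The limma fit called 0 of the 35 members and 0 of 15871 genes (0% of all genes) at an adjusted p under 0.05, and edgeR and DESeq2 on the recovered reads also called 0 members (0 and 3 genes in all). At an unadjusted p under 0.05 there was 1 member of 35, against 2.23% of all genes. This count was 3 members without DMSO replicate 3 and 5 without the 3 shallow libraries, where 563 and 888 of all 15871 genes had such a p, against 354 with every library. The log2 fold change was above 0 in 20 members and below 0 in 15, with a median of 0.04, against a median of 0.0014 over all genes tested. For 20 members the 95% interval of the change lay within a 2-fold rise or fall, and for the other 15 these libraries do not limit the change that far.

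The one member at an unadjusted p under 0.05 was Grin1, with 1469 ± 257 in DMSO and 2179 ± 557 in SPI-24 (SD, n = 5 each), a log2 fold change of 0.55 (SE 0.20, 95% interval 0.11 to 0.98, limma adjusted p = 0.999). The groups overlapped, since SPI-24 replicates 1 and 5 lay below DMSO replicate 5. Grin2b followed, at 924 ± 251 in DMSO and 1202 ± 223 in SPI-24 and a log2 fold change of 0.40 (SE 0.22, adjusted p = 0.999). Grin2b had normalized counts of 705, 640.4, 1251, 1032 and 989 in DMSO replicates 1 to 5 and 939.7, 1059.7, 1496, 1351 and 1161 in SPI-24 replicates 1 to 5, with DMSO replicate 3 inside the range of the SPI-24 libraries. Grin2a came next, with 294, 259, 444, 766 and 770.3 in DMSO replicates 1 to 5 and 934, 838, 607, 759 and 474 in SPI-24 replicates 1 to 5 normalized counts and a log2 fold change of 0.62 (SE 0.34, adjusted p = 0.999). None of these 3 passed, and the other NMDA subunits tested had log2 fold changes of 0.10 (Grin2c), -0.38 (Grin2d) and -1.73 (Grin3a). The value of Grin3a has a wide interval (-4.70 to 1.23) and includes the 0 of SPI-24 replicate 2, a shallow library. Its mean normalized counts were 525 in DMSO and 425 in SPI-24. In Grin2a only DMSO replicates 1, 2 and 3 lay below every SPI-24 library. In the other direction, the smallest p belonged to Gabra3, an alpha subunit of GABA-A receptors, with 2272, 3362, 2663, 1969.8 and 2459 in DMSO replicates 1 to 5 and 3113, 2189, 2091, 1319 and 1211 in SPI-24 replicates 1 to 5 normalized counts and a log2 fold change of -0.42 (SE 0.25, adjusted p = 0.999). Grm7 followed with 484, 443, 649, 643 and 494 in DMSO replicates 1 to 5 and 619.9, 332, 489.7, 507 and 147 in SPI-24 replicates 1 to 5 and -0.51 (SE 0.37, adjusted p = 0.999), where SPI-24 replicate 5 was lowest. For Gabra5 the change was -0.97 (SE 0.73, adjusted p = 0.999), and its high value in each group, DMSO replicate 5 and SPI-24 replicate 4, made the interval wide (-2.53 to 0.60).

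Estimates for the most abundant subunit of most families lay near 0. The log2 fold change was 0.20 for Gabbr1 (95% interval -0.13 to 0.54), -0.089 for Gria1 (-0.63 to 0.45), 0.042 for Grm3 (-0.48 to 0.56) and 0.10 for Grin2c (-0.40 to 0.59), so each interval stays within a 2-fold change. The same holds for Grik5, at 0.0004 (-0.73 to 0.73), and Grid1, at -0.10 (-0.70 to 0.50). Gabra4, highest of the GABA-A subunits described, had a log2 fold change of 0.55 (-0.38 to 1.49, adjusted p = 0.999), which was 0.063 without DMSO replicate 5. Gabbr1 lay at 12569 ± 1026 in DMSO and 14508 ± 1658 in SPI-24, and 4 of the 5 SPI-24 libraries were above every DMSO library, with an adjusted p of 0.999. Thalamic neuron markers were on average 1.26 log2 units higher in SPI-24 than in DMSO, mainly through DMSO replicate 1, and their part in the values of Gabbr2 between treatments was not tested.

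**Figure D2:**
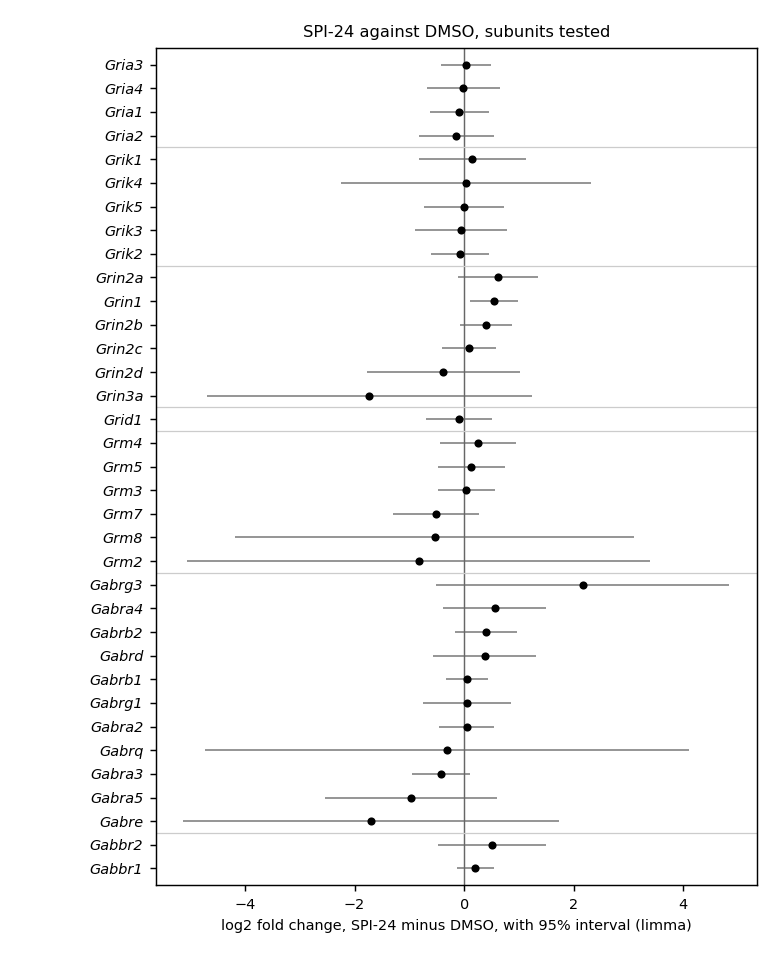
Log2 fold change (SPI-24 minus DMSO) of the 35 subunits tested, with 95% intervals from limma (lines), grouped by receptor family. The interval of Grin1 alone excludes 0, and no subunit passed the adjusted threshold.

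Since the libraries differed in marker levels, each subunit was also set against 3 of them, the mean log2 levels of medium spiny neuron, thalamic neuron, and cortical and hippocampal neuron markers, with treatment as a term in the model. A slope is the log2 change of the subunit per unit (log2) of the marker level. In bulk tissue, fewer cells of a type and less RNA per cell cannot be told apart. The 3 marker levels come from the same 10 libraries, and the first 2 were far apart in DMSO replicate 1 (3.04 for medium spiny and -4.48 for thalamic neurons), so their results are not independent.

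With the medium spiny neuron level, 1 of the 35 members passed the test, Gabbr2, which was lower where these markers were higher: its slope was -0.35 (SE 0.063, limma adjusted p = 0.00858). Over all genes 1.01% fell and 1.39% rose with this level, so 1 member in 35 is near the background. At an unadjusted p under 0.05 there were 10 members (28.6%), 4 rising and 6 falling, against 17.4% of all genes. There were 5 (14.3%) without DMSO replicate 1, 5 without SPI-24 replicate 5 and 3 (8.6%) without both, while 2000, 2764 and 1885 of all genes had such a p, against 2758 with every library. The negative slopes that followed were those of Grm2 (-1.31, SE 0.34, adjusted p = 0.0572), Gabrb2 (-0.14), Gria4 (-0.14) and Grik1 (-0.22). Grm2 was listed at 0 in DMSO replicate 4 and SPI-24 replicates 2 and 5, each with a marker level of 1.53 or more. The last 2 of these are shallow libraries, and the size of its slope includes these zeros. Gabrb2, a beta subunit of GABA-A receptors, had 761, 1135, 2177, 1421 and 1306 in DMSO replicates 1 to 5 and 2255, 1721, 2130.3, 1392 and 1211 in SPI-24 replicates 1 to 5 normalized counts, lowest in DMSO replicate 1. Grik1 (GluK1) had 166, 214, 482, 139.9 and 199 in DMSO replicates 1 to 5 and 368, 227, 299, 234 and 139 in SPI-24 replicates 1 to 5, and the libraries lowest in it were SPI-24 replicate 5 and DMSO replicates 4 and 1. Positive slopes, none past the threshold, belonged to Grik5 (0.19, SE 0.065, adjusted p = 0.132), Gabrg3 (0.68), Grm5 (0.14), Grik3 (0.19) and Gabra2 (0.08). Grm5, a receptor known for its abundance in medium spiny neurons, had 1930.0, 785, 755, 1120.4 and 1585 in DMSO replicates 1 to 5 and 1047, 2147, 1007, 1141 and 1233 in SPI-24 replicates 1 to 5 normalized counts. Gabrg3 (gamma3) had 218, 40.1, 0, 140.3 and 178 in DMSO replicates 1 to 5 and 149.7, 277, 135, 195 and 362 in SPI-24 replicates 1 to 5, and its slope was 0.27 without DMSO replicate 3, a shallow library in which it was listed at 0. Both were above their median in DMSO replicate 1, and the treatment groups overlapped.

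The call of Gabbr2 depended on single libraries. Its slope was -0.27 (adjusted p = 0.123) without DMSO replicate 1, -0.35 (0.0692) without DMSO replicate 3, -0.31 (0.139) without SPI-24 replicate 5 and -0.15 (0.426) without both of the libraries highest in these markers, DMSO replicate 1 and SPI-24 replicate 5.

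With the thalamic neuron level, 1 of the 35 members passed the test, and it was again Gabbr2, which was higher where these markers were higher, with a slope of 0.49 (SE 0.061, limma adjusted p = 0.000431). Over all genes 2.08% rose and 0.813% fell with this level, so 1 member in 35 is near the background. At an unadjusted p under 0.05 there were 10 members, 5 rising and 5 falling, against 15.2% of all genes. Positive slopes of Gabrb2 (0.21, adjusted p = 0.0801), Gria4 (0.21, 0.178), Grm4 (0.20, 0.268) and Grin2c (0.14, 0.304) did not pass. Neither did the negative slopes of Gria2 (-0.26, 0.0579), Grik5 (-0.27, 0.089), Grm5 (-0.22, 0.108), Gabra2 (-0.17, 0.135) and Gabrg3 (-0.84, 0.216), whose slope was -0.35 without DMSO replicate 3. Gria2 had 5188, 1224, 2738, 1808 and 3518 in DMSO replicates 1 to 5 and 2253, 1856, 1927, 2324 and 3562 in SPI-24 replicates 1 to 5 normalized counts and Gabra2 (alpha2) had 3056, 1638, 1347, 1970.2 and 2673 in DMSO replicates 1 to 5 and 2876, 2341, 1548, 1953 and 2026 in SPI-24 replicates 1 to 5. DMSO replicate 1, lowest in thalamic markers, was the highest library for both genes.

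Gabbr1, the partner that must join Gabbr2 in a working receptor, passed for neither level, with slopes of -0.045 (95% interval -0.12 to 0.028) and 0.06 (-0.03 to 0.15) for medium spiny and thalamic markers. Other leading subunits had slopes near 0 as well, with Gria1 at 0.056 and -0.12, Grm3 at 0.076 and -0.043, Grin2c at -0.025 and 0.14, and Grid1 at -0.051 and 0.10, none past the threshold. Those of Gabra4 were -0.052 and 0.21 (adjusted p = 0.847 and 0.455). The thalamic call of Gabbr2 did not remain without DMSO replicate 1 and SPI-24 replicate 5 together, where its slope was 0.40 (adjusted p = 0.596), or without the 3 shallow libraries, where it was 0.41 (0.0719). DMSO replicate 1, lowest in Gabbr2, was also the library highest in choroid plexus and ependymal markers. The mean log2 level of the markers shared by all neurons was lowest in DMSO replicate 1 (-0.79), with SPI-24 replicate 5 next (-0.20). These are also the libraries lowest in Gabbr2. The part of all these markers in the slopes was not tested.

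**Figure D3:**
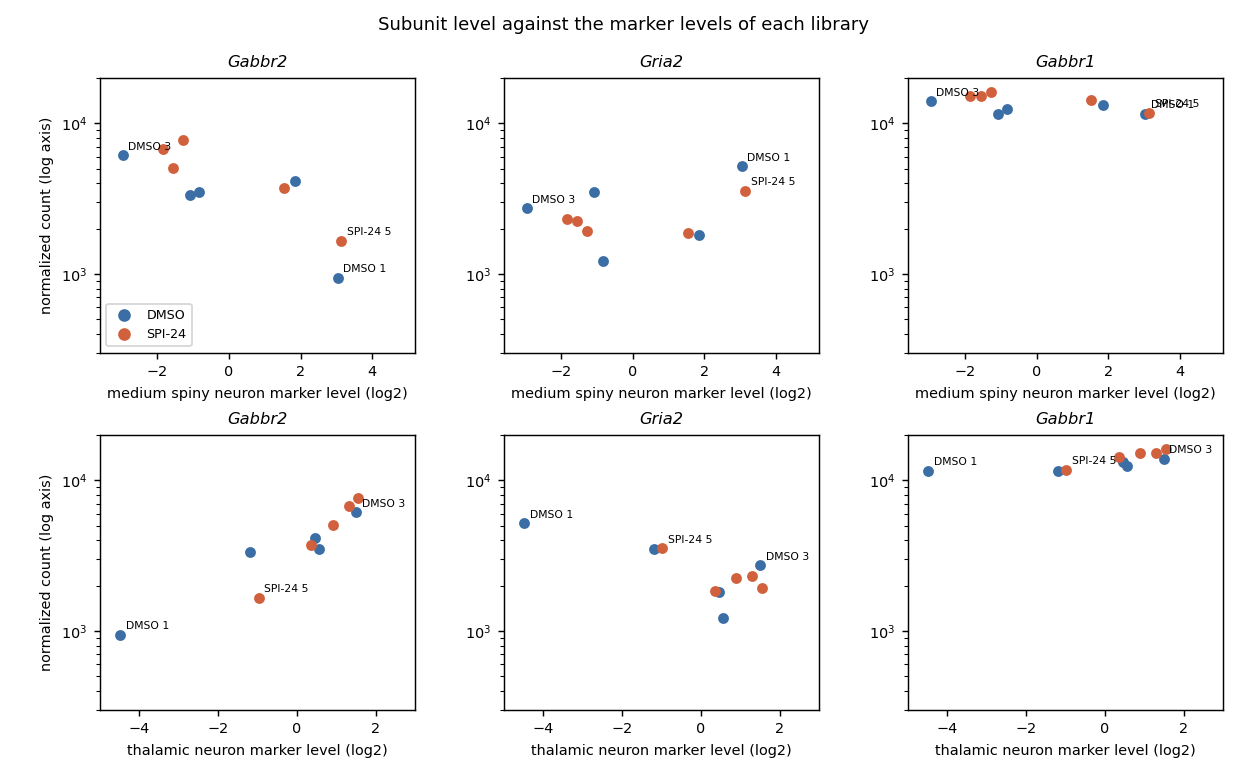
Normalized counts (log axis) of Gabbr2, Gria2 and Gabbr1 against the medium spiny neuron (top) and thalamic neuron (bottom) marker level of each library, in log2 units, blue for DMSO and orange for SPI-24. Gabbr2 is lowest in DMSO replicate 1 and SPI-24 replicate 5, which lie at the right of the top row, and Gabbr1 ranges only 1.39-fold.

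With the cortical and hippocampal neuron level, limma and edgeR called 0 members and 0 genes (0% of all genes), whereas DESeq2 called 49 genes, Gabra5 among them. At an unadjusted p under 0.05 there were 4 members, against 7.27% of all genes. They were Gabra5 (slope 0.79, SE 0.22, limma adjusted p = 0.659), Gabra4 (-0.42, SE 0.14, 0.659), Gabrd (-0.40, SE 0.15, 0.659) and Grm3 (-0.19, SE 0.086, 0.659). The marker level was highest in SPI-24 replicate 4 (2.07) and DMSO replicate 5 (1.90), the same libraries that were highest in Gabra5. Neurod6, a transcription factor gene of pyramidal neurons, had 1973 and 932 normalized counts in them and at most 459.5 elsewhere. Without DMSO replicate 5 the count at an unadjusted p under 0.05 was 1 member (563 of all genes, against 1154 with it), and the slopes of Gabra4 and Gabrd were -0.13 and -0.028. Gabra4 and Gabrd were low only in DMSO replicate 5, while SPI-24 replicate 4 had 4064 and 1715 normalized counts. The other slopes named by rank were those of Grin2d (0.43), Gabrg3 (0.79), Grin1 (0.12), Gria1 (0.15), Gabrb1 (-0.11) and Gabra3 (-0.09), and none passed. That of Gabrg3 was -0.065 without DMSO replicate 3. Slopes of the other leading subunits were 0.064 for Grik5, 0.075 for Grin2c, -0.0011 for Gabbr1 and 0.0012 for Grid1.

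**Figure D4:**
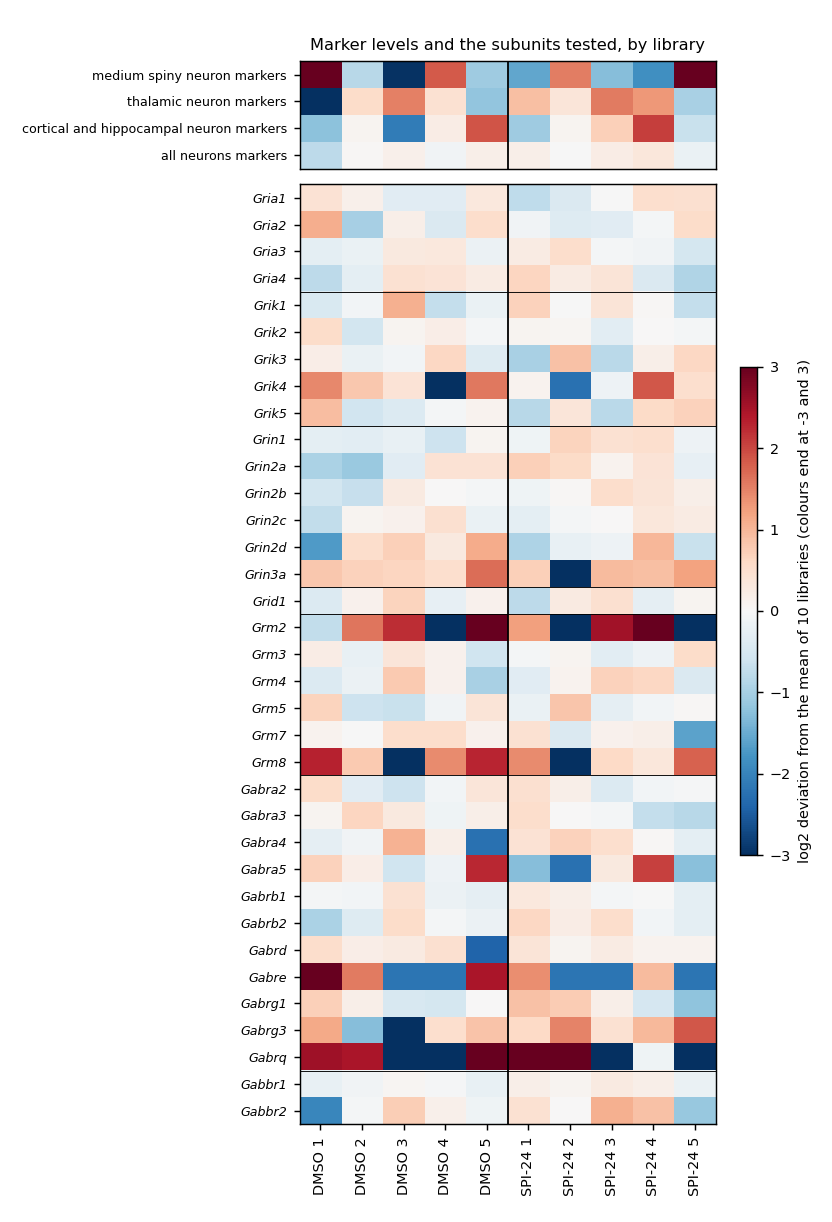
Log2 deviation from the mean of the 10 libraries (colour, ending at -3 and 3) of 4 marker levels (top) and the 35 subunits tested (bottom), with DMSO libraries left of the black line and SPI-24 libraries right of it. Gabbr2 is low in DMSO replicate 1 and SPI-24 replicate 5, and Gabra4 and Gabrd in DMSO replicate 5.

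Shares of a family, taken per kb of exon and given as a description, show the make-up of each library. Gria1 made up 35.4% to 66.7% of AMPA receptor transcripts and Gria4 9.22% to 34.5%. Among the GluN2 genes, Grin2c made up 58.2% to 75.6%, Grin2b 8.78% to 18.7% and Grin2a 4.93% to 19.2%. Grin2c thus led in each of the 10 libraries, in a measure that divides Grin2b by 24.8 kb and Grin2a by 17.9 kb of exon.

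Among the genes of GABA-A alpha2 to alpha5, Gabra4 made up 8.79% in DMSO replicate 5 and 32.5% to 59.6% in the other libraries. Gabra5 made up 29.5% there and 24.3% in SPI-24 replicate 4, against at most 9.31% elsewhere. Gabra3 held 20.2% to 47.9% and Gabra2 7.75% to 23.8%. Gabra3 was the largest of the 4 in DMSO replicates 1, 2 and 5, and Gabra4 in the other 7 libraries.

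In the GABA-B receptor, Gabbr2 held 8.65% to 35.7%, least in DMSO replicate 1 and SPI-24 replicate 5. The mean share of Gabra4 was 36.3% ± 18.9 in DMSO and 47.2% ± 6.17 in SPI-24, and that of Gabbr1 was 76.2% ± 9.24 and 73.0% ± 8.79 (SD, n = 5 each). For Gabra4 the difference was smaller than the SD in DMSO, where replicate 5 lay lowest, but larger than that in SPI-24, and for Gabbr1 it was smaller than both.

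**Figure D5:**
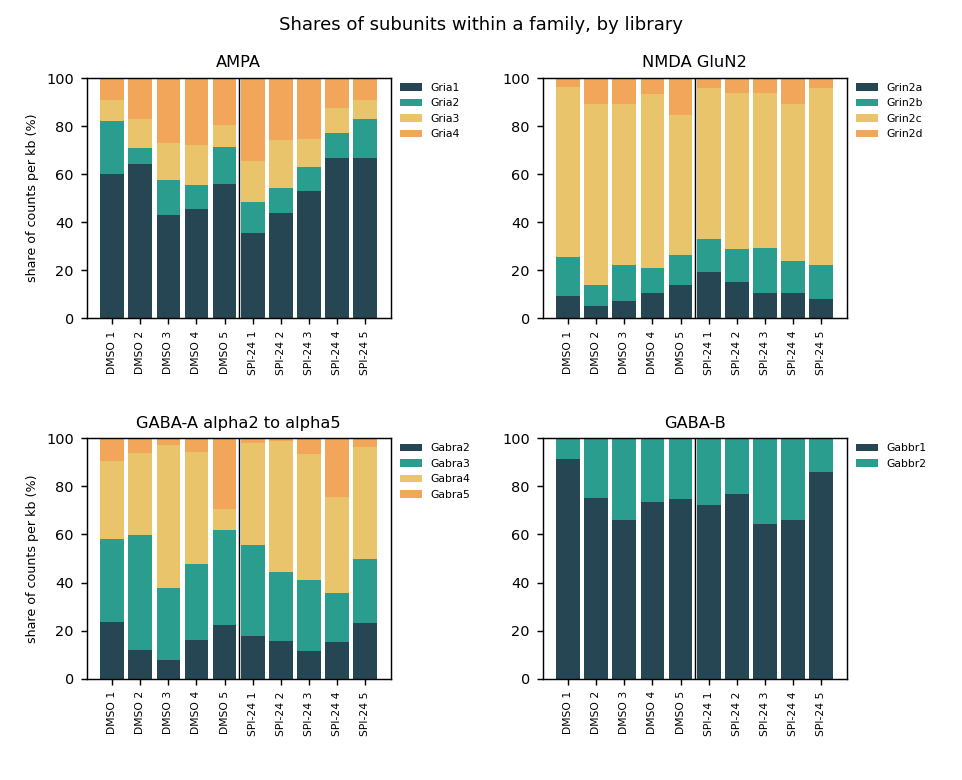
Share (%) of each subunit among those drawn in its panel, from normalized counts per kb of exon, in each library, with DMSO left and SPI-24 right of the black line. DMSO replicate 5 stands out by its small Gabra4 share, DMSO replicate 5 and SPI-24 replicate 4 by their Gabra5 shares, and DMSO replicate 1 and SPI-24 replicate 5 by their small Gabbr2 shares.

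Genes that work with these receptors were described from a fixed list of 54, of which 53 could be tested, namely auxiliary subunits, cerebellins, scaffolds, and the enzymes and transporters of both transmitters. SPI-24 against DMSO called 0 of them, and 3 (5.7%) had an unadjusted p under 0.05, against 2.23% of all genes. These were Gad1, which makes GABA, with 5374, 5480.0, 4939, 6667 and 4748 in DMSO replicates 1 to 5 and 3513, 3215, 1809, 1868 and 8123 in SPI-24 replicates 1 to 5 normalized counts and a log2 fold change of -0.78, Kctd16, a GABA-B auxiliary subunit (-3.28), and Cacng7, an AMPA auxiliary subunit (0.56). Each had a limma adjusted p of 0.999. Kctd16 had mean normalized counts of 93.25 in DMSO and 22.61 in SPI-24. It was listed at 0 in SPI-24 replicates 2 and 5, both shallow libraries, which enlarges its log2 fold change. The medium spiny neuron level called 12 of the 53, 6 rising and 6 falling, where 1.39% of all genes rose and 1.01% fell, and 52.8% of the 53 had an unadjusted p under 0.05, against 17.4% of all genes. The smallest p belonged to Gsg1l, an AMPA auxiliary subunit, with 2272, 849, 301, 1099.8 and 606 in DMSO replicates 1 to 5 and 358, 1502, 413, 349 and 1964 in SPI-24 replicates 1 to 5 normalized counts and a slope of 0.48 (adjusted p = 0.00022), and to the scaffolds Dlg1 (0.42) and Dlg2 (0.34). Both scaffold genes were highest in DMSO replicate 1 and SPI-24 replicate 5. Neto2, a kainate auxiliary subunit, rose as well (0.31, 0.0136), and the cerebellins Cbln1 (-0.69) and Cbln2 (-1.08) fell. Cbln2 was listed at 0 in SPI-24 replicate 5, a shallow library. Without DMSO replicate 1 and SPI-24 replicate 5 together, 1 of all 15871 genes was called for this level. At most 1 of these 12 calls thus remained.

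The thalamic level also called 12, 8 rising and 4 falling, where 2.08% of all genes rose and 0.813% fell, and 49.1% of the 53 had an unadjusted p under 0.05, against 15.2% of all genes. Among those rising were Slc17a6, the vesicular glutamate transporter of thalamic neurons, with 138, 3879, 8312, 3030.1 and 3089 in DMSO replicates 1 to 5 and 6953, 4784, 6848, 3912 and 741 in SPI-24 replicates 1 to 5 normalized counts and a slope of 0.96 (adjusted p = 6.6e-05), and Slc17a7, that of cortical neurons (0.80, 0.00063). Of the AMPA auxiliary subunits, Shisa6 (0.72), Cnih3 (0.47) and Cacng2 (0.25) rose with it, while Neto2 (-0.35), Dlg1 (-0.46) and Dlg2 (-0.40) fell. Without DMSO replicate 1 and SPI-24 replicate 5 together, 0 of all 15871 genes were called for the thalamic level, so none of these 12 calls remained. The cortical and hippocampal level called 0 of the 53, with 2 (3.8%) at an unadjusted p under 0.05, against 7.27% of all genes.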

How the data were processed

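Per the paper's methods and the submitters' processing notes, RNA (TruSeq Stranded mRNA, single 50-bp reads) was trimmed with cutadapt, reads under 30 bp were dropped, the rest were aligned with STAR to the mouse genome GRCm38, so transgene transcripts were not counted apart, and unique reads were counted per gene with HTSeq. The sources used here name neither tool versions nor strand use in counting. The authors deposited DESeq2 size-factor normalized counts (a linear signal), from which whole reads were recovered: 99.98% of 154521 values above 0 lay within 0.1 read of a whole number. The table as deposited also holds the authors' own log2 fold changes, p-values and adjusted p-values from DESeq2 and their mean signal, none of which was used.

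The main test was limma 3.58.1 (R 4.3.3), with trend, on log2(value + 1) for 15871 genes with a mean of at least 10, with Benjamini-Hochberg adjustment over all genes and a threshold of 0.05. On this scale the added 1 shrinks the fold change of genes low in every library, whereas a library listed at 0 can enlarge it. Gabrg3, at 0 in DMSO replicate 3, had means of 115 in DMSO and 224 in SPI-24 but a log2 fold change of 2.16. Alternatives were edgeR 4.0.16 and DESeq2 1.42.0 on the recovered reads, other pseudocounts and filters, a replicate block, covariates and left-out libraries. The scripts were tested on simulated counts. Exon lengths came from GENCODE vM21 (GRCm38), as the union of exons, and gene starts from RefSeq. The level per kb of the longest coding transcript was added after seeing the data.

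Statistics are given for the 3 subunits of smallest p in each direction for SPI-24, the 5 for each marker level and the highest per kb of each family, and values per library also for the 2 highest per kb. Ranks are among the 38 subunits described, since 5 that match the naming rule are not reported here, although they stay in the fits over all genes. Other subunits described with values were chosen after their values were seen. Members, marker lists and partner genes were chosen with earlier results of these data known.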

Additional observations from a re-analysis of the deposited data

Results flagged for a closer look

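In 11 of 70 groups of 5 libraries tested (35 subunits in 2 treatments), 1 library lay far from the other 4 by Dixon's test on normalized counts. Chance gives about 5% if values are normally distributed, which was not tested for these counts. The 70 groups also share the same 10 libraries, so 5% is only a rough guide. The AMPA subunit Gria2 had 3562 normalized counts in SPI-24 replicate 5, against 1856 to 2324 in the other 4 libraries of that group. In DMSO replicate 5, Gabra5 (GABA-A alpha subunit) stood at 1386, with its group otherwise at 191 to 466. Gabra5, a GABA-A alpha subunit, was at 1203 in SPI-24 replicate 4 and at 60.9 to 355 in the rest of that treatment. The GABA-A beta subunit Gabrb1 had 2345 normalized counts in DMSO replicate 3, against 1415 to 1635 in the other 4 libraries of that group. In DMSO replicate 5, Gabrd (GABA-A delta subunit) stood at 301, with its group otherwise at 1832 to 2320.0. Gabre, a GABA-A epsilon subunit, was at 113 in DMSO replicate 1 and at 0 to 24 in the rest of that treatment. The NMDA subunit Grin2d had 292 normalized counts in SPI-24 replicate 4, against 76.5 to 130.1 in the other 4 libraries of that group. In DMSO replicate 5, Grin3a (NMDA subunit) stood at 882, with its group otherwise at 392 to 480.4. Grin3a, an NMDA subunit, was at 0 in SPI-24 replicate 2 and at 454 to 631 in the rest of that treatment. The kainate subunit Grik1 had 482 normalized counts in DMSO replicate 3, against 139.9 to 214 in the other 4 libraries of that group. In SPI-24 replicate 2, Grm5 (metabotropic receptor) stood at 2147, with its group otherwise at 1007 to 1233. Of the 11 values so marked, DMSO replicate 5 accounted for 3 (high in Gabra5 and Grin3a, low in Gabrd) and SPI-24 replicate 4 for 2 (high in Gabra5 and Grin2d), and both were highest in cortical and hippocampal neuron markers. DMSO replicate 3 and SPI-24 replicate 2, which accounted for 2 each, are among the 3 shallowest libraries. So is SPI-24 replicate 5, marked for Gria2. The part of marker levels and of depth in these values was not tested.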

How the results depend on the processing

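Depth limits the low members: with 3 shallow libraries, subunits such as Grm2, Grm8, Gabrq and Gabre could not be followed below 1.44 to 10.25 normalized counts (3 reads), and these floors cover counting error only, whereas the limma intervals rest on the spread between libraries. With 5 libraries a group, the interval of 15 of 35 members extends past a 2-fold change. For SPI-24 against DMSO, the count of members called stayed at 0 in every alternative run, leaving out each library included; DESeq2 called 3 genes in all.

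For the medium spiny neuron level (1 member called, Gabbr2), the count was 2 with DESeq2 and without a term for the group (Grm2 in addition), 0 without the limma trend, 0 without DMSO replicate 1 and SPI-24 replicate 5 (the pair highest in these markers), 0 without the 3 shallow libraries and 0 to 2 when each library was left out. Over all genes, 381 were called, against 970 with DESeq2, 67 without the trend, 1 without that pair, 4 without the shallow ones and 72 to 552 when each library was left out. For the thalamic level (1 member, Gabbr2), the count was 3 with DESeq2 (Gabrb2 and Gria2 in addition), 2 with at least 10 counts in every library (Gria2), 2 without a term for the group (Gabrb2), 0 without that pair, 0 without the shallow ones and 1 to 2 when each library was left out. Over all genes 459 were called, against 880 with DESeq2, 78 without the trend, 0 without that pair, 55 without the shallow ones and 50 to 558 when each library was left out. For the cortical and hippocampal level, DESeq2 called 1 member and 49 genes, and the count stayed at 0 otherwise. The cause of these differences was not tested.

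Replicate numbers did not pair the libraries: deviations of same-numbered libraries correlated at -0.127 to -0.011. With a replicate block the counts were 0 members (SPI-24), 0 (medium spiny), 0 (thalamic) and 0 (cortical and hippocampal), and 87 and 81 genes for the medium spiny and thalamic levels.

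Estimates near 0 changed sign in some alternatives, without a call. Under the block, slopes became 0.025 (Grid1, medium spiny), 0.11 (Gabra4, medium spiny), -0.066 (Grid1, thalamic), -0.037 (Grm4, thalamic) and, for the cortical and hippocampal level, 0.03 (Gabbr1), 0.0955 (Gabra3), -0.016 (Grid1), -0.10 (Grik5) and -0.11 (Grin2c). For that level they were also 0.016 (Gabbr1) and -0.004 (Grid1) with edgeR, -0.027 (Grid1) with DESeq2, and 0.013 (Gabbr1) and -0.0059 (Grid1) without a group term. Without the pair, the SPI-24 fold changes were -0.12 (Grin2c) and -0.032 (Grm3), and slopes were -0.063 (Gria1, medium spiny), 0.0185 (Gria4, medium spiny), 0.042 (Grin2c, medium spiny), -0.0063 (Gria4, thalamic), 0.23 (Grm3, thalamic) and -0.033 (Grid1, cortical and hippocampal). Without the shallow libraries, the fold changes were -0.46 (Grik5), -0.058 (Grm3) and 0.069 (Grm7), and the medium spiny slopes 0.0042 (Gabbr1), 0.32 (Gabra4) and -0.025 (Gria1). With the level of Xist as a covariate, that of Grik5 was -0.0705.

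Leaving out each library in turn, SPI-24 fold changes ranged from -0.23 to 0.092 (Gria1), -0.23 to 0.085 (Grid1), -0.17 to 0.23 (Grik5), -0.076 to 0.23 (Grin2c) and -0.10 to 0.14 (Grm3). Medium spiny slopes ranged from -0.12 to 0.083 (Gabra4), -0.091 to 0.0024 (Grid1) and -0.059 to 0.049 (Grin2c), and cortical and hippocampal slopes from -0.024 to 0.032 (Gabbr1), -0.065 to 1.11 (Gabrg3), -0.088 to 0.13 (Grid1) and -0.0302 to 0.15 (Grik5). Of 1169 alternative values for the named subunits, 1090 kept direction and side of the threshold.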
